A study of Mus musculus with 4 samples.

Results

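Multiciliated cells of the airway carry many motile cilia, whose microtubule core, the axoneme, is built from doublet microtubules with dynein motors and radial spokes attached. The transcription factor FOXJ1 switches on most of the genes needed for this structure, so such genes serve as markers of the cells in airway tissue. Tektins run along the inside of the doublets, and membrane proteins such as the cadherin-related proteins sit at the apical surface. The genes described here are 10 markers of these cells that lie outside the dynein and spoke complexes, and they were chosen by name. They comprise the cell surface genes Cdhr3, Cdhr4 and Tmem212, the lipid-binding protein gene Sec14l3, the microtubule and axoneme genes Tppp3, Tekt1, Tekt2, Tekt4 and Ccdc153, and the basal body gene Cfap126. All 10 are in the deposited table of 21931 genes, and all 10 passed the filter on low counts that left 15055 genes for testing.

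RNA sequencing was performed on whole lung tissue of untreated C57BL6 mice aged 2 months. There was 1 library of a wild-type mouse, 2 of mice labelled as knockouts of Dnah9, which encodes a heavy chain of the outer dynein arm, and 1 of a mouse with the genotype label Hez. The labels do not spell out what Hez stands for, so it is kept as written, and they do not say how the knockout allele was made. No allele or agent other than these is named for any group, and nothing in the labels tells whether the mice shared a litter or a batch.

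The libraries held 15860478 to 16553480 reads in genes. Sftpc, the surfactant protein gene that defines alveolar type 2 cells of the lung, stood between 12160 and 13870 CPM (read counts scaled to a common library total after TMM normalization) in the 4 libraries. Dnah9, the gene named in the labels, had 56.6 CPM in wild type, 25.4 in Hez, and 14.8 and 15.98 in knockout libraries 1 and 2. Its log2 fold in the knockouts against wild type was -1.88 (SE 0.145, edgeR adjusted p = 0.00864). The labels do not say which part of Dnah9 was deleted, so the remaining reads cannot be assigned to exons that were kept.

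The 10 genes lay lower in both knockout libraries than in wild type, and the Hez library lay below wild type for all 10 as well. The wild-type library was thus the highest of the 4 for every one of these genes, which held for 25.2% of all genes tested. The median log2 CPM difference from wild type was -0.67 in Hez, -0.42 in knockout 1 and -0.45 in knockout 2, where the median over all genes tested was between -0.0027 and 0.00086. In a whole-lung library, fewer multiciliated cells and less RNA of these genes per cell cannot be told apart. The fall was not particular to ciliated cell genes. Lists of club cell and smooth muscle markers had median differences of -0.65 to -0.31 in the same libraries, and both alveolar lists had positive ones, 0.04 to 0.29. How far such differences between lung samples enter the values of the 10 genes was not tested. None of the 10 passed the test over all genes in any comparison, as given below.

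Per unit of gene length the 10 genes spanned a wide range. Sec14l3, which belongs to a family of proteins that bind and transfer lipids, had the highest level, with a mean of 549.5 FPKM (reads scaled by gene length and library total) ± 35.7 (SD over the 4 libraries). Tppp3, a tubulin polymerization-promoting protein, followed at 171 ± 21.2 FPKM. Tmem212, which encodes a membrane protein, and Ccdc153, a coiled-coil protein of the nexin-dynein regulatory complex, were next at 35.7 ± 8.3 and 32.7 ± 7.31 FPKM. Cfap126, also known as Flattop and involved in basal body docking and positioning, stood at 16.7 ± 4.65 FPKM and Cdhr3, a cadherin-related surface protein whose human counterpart is a receptor for rhinovirus C, at 15.3 ± 3.68. The tektins, filament proteins inside the doublet microtubules, ranged from 9.44 ± 1.88 FPKM for Tekt1 through 5.25 ± 1.31 for Tekt4 to 2.60 ± 0.359 for Tekt2, and the cadherin-related gene Cdhr4 was the lowest at 1.77 ± 0.51.

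The order of these levels was the same in all 4 libraries. The ranges over libraries overlapped between Tmem212 and Ccdc153, between Cfap126 and Cdhr3, and between Tekt2 and Cdhr4. Within single libraries the higher of each pair was 1.02 to 1.17 times the lower for Tmem212 and Ccdc153, 1.015 to 1.13 times for Cfap126 and Cdhr3, and 1.29 to 2.02 times for Tekt2 and Cdhr4. The other neighbouring pairs had ranges that did not overlap. The sum of reads over the 4 libraries was 99281 for Sec14l3 and 321 for Tekt2, so counting error is far smaller for the former.

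**Figure D1:**
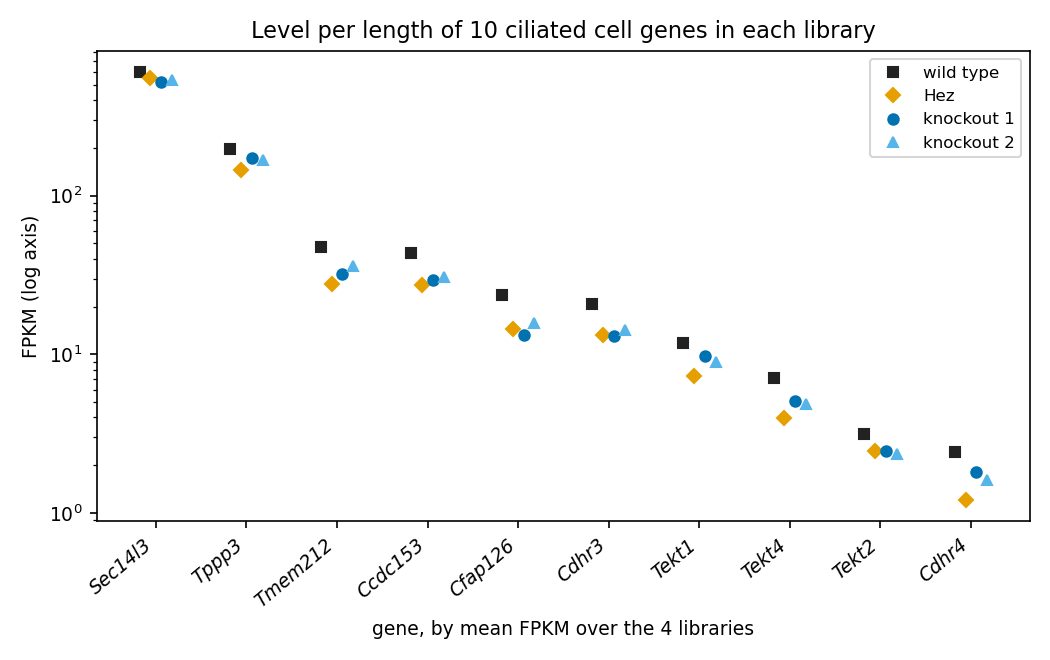
FPKM (log axis) of the 10 genes in each library, ordered by the mean over the 4 libraries, with 1 point per library. Sec14l3 lies highest, with 517.0 to 599.1 FPKM, Cdhr4 lowest, with 1.21 to 2.44 FPKM, and the wild-type point is the uppermost for each gene.

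Among the surface genes, Cdhr3 (ENSMUSG00000035860, chromosome 12, 33083795 to 33142874 on GRCm39) had 94.5 CPM in wild type, 60.9 in Hez, and 60.2 and 64.4 in knockouts 1 and 2. The Hez value lay between the knockout values, and the wild-type value was 1.52 times the knockout mean of 62.3 ± 3.002 (SD, n = 2). The log2 fold against wild type was -0.60 (SE 0.102, edgeR adjusted p = 0.248), the smallest p among the 10 genes and 22nd among all genes tested. Against Hez the log2 fold was 0.03 (SE 0.106, edgeR adjusted p = 0.9997).

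Cdhr4 (ENSMUSG00000032595, chromosome 9, 107869696 to 107876883) had 7.47 CPM in wild type, 3.75 in Hez, 5.66 in knockout 1 and 4.97 in knockout 2. Hez was the lowest library for this gene and wild type the highest. The log2 fold of the knockouts was -0.49 against wild type (SE 0.304) and 0.50 against Hez (SE 0.328), the largest of the 10 against Hez. Cdhr4 overlaps the gene models Gm20661 and Gm20662 on the same strand over 2511 and 3336 bases, so the reads of these loci may not be separated. Gm20661 had 5.62 CPM in wild type, 2.60 in Hez, 3.81 in knockout 1 and 3.08 in knockout 2, in the same order of libraries as Cdhr4. None of the other 9 genes overlaps another gene of the deposited table.

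Tmem212 (ENSMUSG00000043164, chromosome 3, 27920215 to 27950517) had 33.6 CPM in wild type, 20.0 in Hez, 23.1 in knockout 1 and 25.6 in knockout 2. Wild type was the highest and Hez the lowest, with both knockouts between them. The log2 fold was -0.46 against wild type (SE 0.156, edgeR adjusted p = 0.776) and 0.29 against Hez (SE 0.163, edgeR adjusted p = 0.9997).

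Sec14l3 (ENSMUSG00000054986, chromosome 11, 4014841 to 4027736) differed least between libraries, with 1658 CPM in wild type, 1534 in Hez, and 1449 and 1477 in the knockouts. It was the only one of the 10 for which both knockout libraries lay below both wild type and Hez, an arrangement that 16.3% of all genes tested showed. The log2 fold was -0.18 against wild type (SE 0.0666, edgeR adjusted p = 0.831) and -0.07 against Hez (SE 0.0668). The knockout mean was 88.3% of the wild-type value.

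Tppp3 (ENSMUSG00000014846, chromosome 8, 106194125 to 106198158) likewise differed little between the knockouts and wild type. It had 362.2 CPM in wild type, 269.3 in Hez, 322.6 in knockout 1 and 310.0 in knockout 2. The Hez library stood apart as the lowest, at 74.3% of wild type (95% exact conditional interval 71.5% to 77.3%, counting error only). The log2 fold was -0.20 against wild type (SE 0.0904, edgeR adjusted p = 0.996) and 0.23 against Hez (SE 0.0921, edgeR adjusted p = 0.9997).

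The order of the libraries was alike for Tekt1 and Tekt4 and differed for Tekt2, though a difference between these genes was not tested. Tekt1 (ENSMUSG00000020799, chromosome 11, 72235548 to 72253268) had 19.1 CPM in wild type, 11.9 in Hez, 15.9 in knockout 1 and 14.5 in knockout 2. Tekt4 (ENSMUSG00000024175, chromosome 17, 25673589 to 25695576) had 14.1, 7.99, 10.3 and 9.63 CPM in the same libraries. For both, Hez was the lowest library and the knockouts lay between Hez and wild type.

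Tekt2 (ENSMUSG00000028845, chromosome 4, 126215914 to 126219481) had 5.92 CPM in wild type, 4.66 in Hez, 4.73 in knockout 1 and 4.47 in knockout 2. Hez and the knockouts were nearly level. The log2 folds against wild type were -0.33 for Tekt1 (SE 0.19), -0.50 for Tekt4 (SE 0.223) and -0.36 for Tekt2 (SE 0.32), with edgeR adjusted p from 0.981 to 0.996. Against Hez they were 0.35 (SE 0.198), 0.32 (SE 0.236) and -0.02 (SE 0.328), each with edgeR adjusted p = 0.9997. With 71 to 96 reads per library, the standard error for Tekt2 was close to its fold against wild type.

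Cfap126 (ENSMUSG00000026649, chromosome 1, 170941487 to 170954536) had the largest fold of the 10 against wild type. It had 41.5 CPM in wild type, 25.7 in Hez, 23.7 in knockout 1 and 27.7 in knockout 2, and the Hez value lay between those of the knockouts. The log2 fold was -0.69 against wild type (SE 0.154, edgeR adjusted p = 0.402), with the knockout mean at 61.9% of wild type. It also showed the largest difference between the knockout libraries, -0.22 on the log2 scale for knockout 1 minus knockout 2.

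Ccdc153 (ENSMUSG00000070306, chromosome 9, 44151973 to 44158603) had 88.0 CPM in wild type, 55.8 in Hez, 60.1 in knockout 1 and 62.2 in knockout 2. The knockouts lay close together, at 61.1 ± 1.44 CPM (SD, n = 2), just above Hez and well below wild type. The log2 fold was -0.53 against wild type (SE 0.101, edgeR adjusted p = 0.323) and 0.13 against Hez (SE 0.104).

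**Figure D2:**
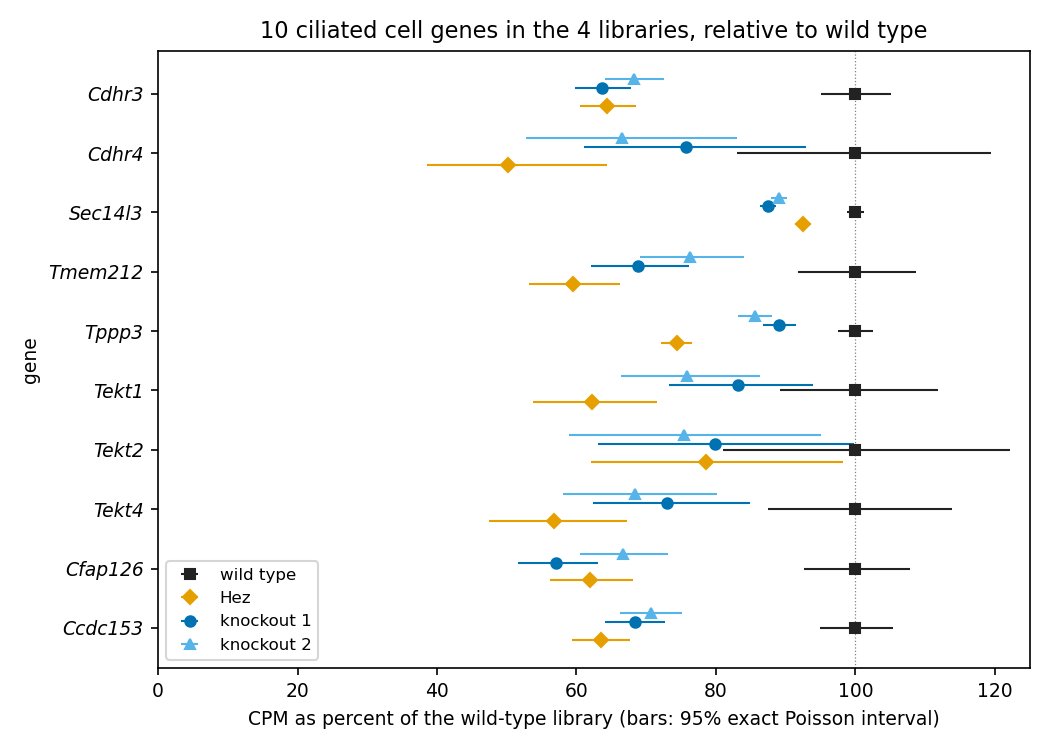
CPM of the 10 genes in each library as a percent of the wild-type library, with 1 point per library and bars for the 95% exact Poisson interval of the library's own count. The points of Hez and both knockouts lie below 100% for each gene, from 50.2% for Cdhr4 in Hez to 92.5% for Sec14l3 in Hez.

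Promoters are shown for the genes whose windows held an X-box, the DNA element bound by the RFX factors that act with FOXJ1 in motile ciliogenesis. The RefSeq table (GRCm38.p6) gave windows from 250 bases before to 50 after the start for 9 of the 10 genes, all but Tppp3. The element searched was GTTNCC, then 1 to 3 bases, then GGNAAC, with at most 1 mismatch in its 10 fixed bases. It reads alike on both strands. Matches were found for 3 of the 9 genes, Tekt2, Tekt4 and Ccdc153, and in 5.47% of the 27025 genes in the table. In the sequences, capitals mark the match, and each holds 1 mismatch.
Tekt2 (chr4:126325695-126325727, minus strand): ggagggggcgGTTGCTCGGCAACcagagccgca
Tekt4 (chr17:25471420-25471453, plus strand): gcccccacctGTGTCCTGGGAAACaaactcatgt
Ccdc153 (chr9:44240515-44240548, plus strand): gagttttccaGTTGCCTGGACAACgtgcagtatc
The match lay at -29 to -17 from the nearest annotated start in Tekt2, at -160 to -147 in Tekt4 and at -152 to -139 in Ccdc153. A second match in Tekt4 began at the annotated start. The forkhead motifs TGTTTAC and TGTTTGT, searched on both strands, were found for 1 of the 9 genes, Cfap126, and in 11.2% of the genes in the table. These are matches of letters and were not tested as binding sites. The genes with an X-box match had log2 folds against wild type of -0.36, -0.50 and -0.53, inside the range of the other genes.

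The comparison of knockout with wild type asks which genes differ where Dnah9 is knocked out. In it, 0 of the 10 genes passed the adjusted threshold in edgeR. Over all genes 0.0531% passed. At an unadjusted p below 0.05, 5 of the 10 were lower (Cdhr3, Sec14l3, Tmem212, Cfap126 and Ccdc153), against 3.37% of all genes tested. With DESeq2 and limma-voom 0 passed as well, though DESeq2 gave no adjusted p for Cdhr4, Tekt1, Tekt2 and Tekt4. At an unadjusted p below 0.05 in either direction stood 3 of the 10 with DESeq2, against 186 of 15055 genes. With limma-voom 7 of the 10 stood there, against 821 of 15055 genes. Both knockout libraries lay below wild type for all 10 genes, as they did for 33.4% of all genes. The median log2 fold was -0.48, with a range of -0.69 to -0.18, and the median over all genes tested was 0.0045.

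The gap between wild type and the nearer knockout library was larger than the gap between the knockouts for each of the 10 genes, as for 16.8% of all genes tested. It was 0.55 against 0.10 on the log2 scale for Cdhr3, 0.50 against 0.05 for Ccdc153 and 0.17 against 0.03 for Sec14l3, and the ratio of the gaps was smallest for Tekt1 with 0.26 against 0.13 and Cdhr4 with 0.39 against 0.18. The median absolute difference between the knockouts was 0.09 for the 10 genes and 0.14 for all genes tested. The wild-type group held 1 library, so how far wild-type mice differ from each other in these genes was not measured. The smallest adjusted p among the 10 genes ranged from 0.226 to 0.888 over the alternative settings.

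Against Hez, 0 of the 10 genes passed in edgeR, where 0.00664% of all genes did. Folds were positive for 7 and negative for 3 (Sec14l3, Tekt2 and Cfap126), with a median of 0.18, where the median over all genes tested was 0.0099. The sign rested on single knockout libraries for 3 genes. Without knockout 1 the fold of Cfap126 was 0.10, and without knockout 2 the folds were -0.12 for Cfap126, -0.02 for Cdhr3 and 0.02 for Tekt2. At an unadjusted p below 0.05 stood 1 of the 10, Tppp3, against 4.61% of all genes. With DESeq2 0 of the 10 stood there, against 164 of 15055 genes. Both knockout libraries lay above Hez for 6 genes (Cdhr4, Tmem212, Tppp3, Tekt1, Tekt4 and Ccdc153), as for 34.2% of all genes. This comparison shares the knockout libraries with the comparison against wild type.

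**Figure D3:**
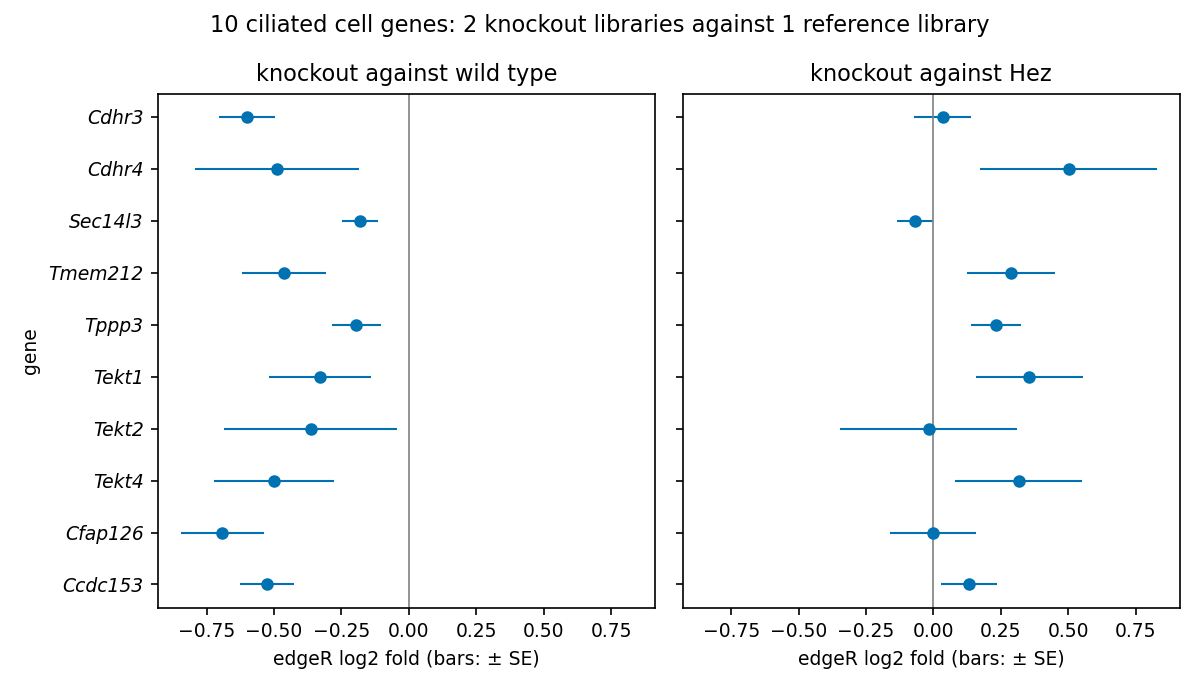
EdgeR log2 folds of the 2 knockout libraries against wild type (left) and against Hez (right) for the 10 genes, with bars for ± SE. The folds against wild type run from -0.69 to -0.18, and those against Hez from -0.07 to 0.50.

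With wild type and Hez taken as 1 group of 2 libraries, 0 of the 10 genes passed in edgeR, against 0.0133% of all genes. At an unadjusted p below 0.05 there were 0 of the 10, against 5.07% of all genes. With DESeq2 and limma-voom there were also 0, against 426 and 735 of 15055 genes. The median log2 fold was -0.14, with Cfap126 at -0.39 (SE 0.21) and Cdhr3 at -0.32 (SE 0.177) on the lower end and Tppp3 at 0.0029 (SE 0.127) on the upper end. This median was -0.48 without the Hez library and 0.18 without the wild-type library, so its direction depended on which reference library was used.

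Hez against wild type rests on 1 library each and has no replicate check. Hez stood below wild type for all 10 genes, and at less than 80% of it for 9 of them, which 14.3% of all genes showed. The exception was Sec14l3, at 92.5% of wild type (95% exact conditional interval 90.9% to 94.1%). The lowest ratios were 50.2% for Cdhr4 (36.4% to 68.8%), 56.8% for Tekt4 (45.5% to 70.6%) and 59.5% for Tmem212 (51.7% to 68.3%). Tekt2 was the single gene whose interval included equality, at 78.6% (57.5% to 107.2%). Hez was the lowest of the 4 libraries for 6 of the 10 genes, as for 25.4% of all genes.

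The 10 genes did not move by the same amount. Relative to the median of the 10 in the same library, Sec14l3 stood 0.61 higher in Hez than in wild type, 0.48 higher in knockout 1 and 0.32 higher in knockout 2, on the log2 scale. Tppp3 stood 0.29, 0.50 and 0.26 higher in the same libraries. Tekt2, 1 of the least abundant genes, stood 0.38, 0.35 and 0.09 higher, and Tekt1 0.04, 0.41 and 0.09. That median was the mean of Tmem212 and Cfap126, the middle genes by CPM in each library. Their own small ranges, 0.16 each, are thus set partly by the measure, and the shifts of the other genes are relative to these genes. Cdhr3 and Ccdc153 kept within ranges of 0.15 and 0.14 over the 4 libraries relative to that median. Cdhr4 had a wider range of 0.53, with 62 to 121 reads per library.

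Family relatives of the 10 genes were described beside them. Of the 12 relatives listed, 8 were tested, with 5 negative and 3 positive folds against wild type, a median of -0.02 and 0 past the threshold in edgeR. Sec14l1, the most abundant relative, had 229.1 CPM in wild type, 233.4 in Hez, 229.5 in knockout 1 and 222.2 in knockout 2. Sec14l4 had 99.2, 111.9, 96.5 and 92.5 CPM in the same libraries, Sec14l2 22.9, 22.8, 25.7 and 19.4, and Sec14l5 6.91, 4.78, 6.45 and 6.10. Wild type was the highest library for Sec14l5 alone among these relatives, with Hez the lowest.

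Tppp, expressed mainly in glia of the nervous system, had 33.6 CPM in wild type, 29.5 in Hez, 33.1 in knockout 1 and 35.7 in knockout 2. Tekt5, a tektin known from sperm, had 4.63 CPM in wild type, 8.05 in Hez, 6.45 in knockout 1 and 5.85 in knockout 2, with wild type lowest and Hez highest, the reverse of Tekt1 and Tekt4. Its log2 fold of 0.41 against wild type (SE 0.303, edgeR adjusted p = 0.996) did not pass. Tekt3 had 11 to 22 reads and Cdhr1 4 to 10 reads per library. Cdhr5 and Ccdc105 had at most 3 reads in a library, and Cdhr2 and Tppp2 had 0 reads in each, where 3 reads correspond to 0.18 to 0.19 CPM.

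Other genes of the axoneme lay on the same side as the 10. Of 35 listed genes of the doublet microtubule and axoneme lumen, 30 were in the table and 27 were tested, with 25 negative and 2 positive folds against wild type, a median of -0.38 and 0 past the threshold in edgeR. Against Hez 6 were negative and 21 positive, with a median of 0.13. Tekt3, Tekt5 and Ccdc105 are in this list and also among the family relatives, so the positive fold of Tekt5 against wild type is counted in both lists. Over all genes tested the median fold was 0.0045 against wild type and 0.0099 against Hez. The median log2 CPM difference of Hez from wild type over all genes tested was -0.0022. Cfap45, a protein inside the doublet microtubule, had 23.8 CPM in wild type, 11.1 in Hez, 12.9 in knockout 1 and 14.1 in knockout 2 (log2 fold against wild type -0.82, SE 0.185, edgeR adjusted p = 0.417). Enkur, which encodes the doublet protein enkurin, had 22.7, 16.3, 15.3 and 15.5 CPM in the same libraries, and Fam183b had 21.7, 13.7, 14.3 and 14.9.

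In a list of 30 further markers of multiciliated cells all 30 had negative folds against wild type, with a median of -0.51 and 0 past the threshold in edgeR. In Hez 29 of 30 were lower than in wild type. These counts rest on the same single wild-type library as those of the 10 genes, so they are not a separate check. The list was also chosen with earlier results of these data known. Foxj1 itself had 103.7 CPM in wild type, 68.4 in Hez, 70.6 in knockout 1 and 70.9 in knockout 2. The summed level of this list was 1080 CPM in wild type, 724.1 in Hez, and 773.4 and 767.6 in the knockouts, and 0 of its genes were at 0. The summed level of the 10 genes, of which Sec14l3 makes up the largest share, was 2324 CPM in wild type, 1994 in Hez, and 1976 and 2001 in the knockouts.

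Among markers of other cells, the club cell list and the list of airway and vascular smooth muscle had mostly negative folds. These lists were chosen with earlier results of these data known. Of 17 club and secretory cell markers all 17 had negative folds against wild type, with a median of -0.42, where the median over all genes tested was 0.0045. In edgeR 3 of the 17 passed the threshold (Scgb3a1, Scgb3a2 and Bpifa1), where 0.0531% of all genes tested passed. The summed level of the 17 was 26610 CPM in wild type, 21150 in Hez, and 22040 and 19180 in the knockouts. Of 10 smooth muscle markers 9 were negative, with a median of -0.43 and 0 past the threshold in edgeR, and their sum was 2110 CPM in wild type, 1321 in Hez, and 1670 and 1509 in the knockouts. None of the genes of these lists was at 0, and their part in the values of the ciliated cell genes was not tested.

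Alveolar lists lay on the other side or near 0. All 14 alveolar type 2 cell markers had positive folds against wild type, with a median of 0.25, 0 past the threshold in edgeR, and sums of 35060 CPM in wild type, 35780 in Hez, and 41680 and 38970 in the knockouts. Of 11 alveolar type 1 cell markers 3 were negative and 8 positive, with a median of 0.07. Basal cell markers (5 tested of 8) had medians against wild type of -0.37 in knockout 1 and 0.33 in knockout 2, and neuroendocrine and tuft cell markers (6 tested of 8) -0.38 and 0.10, so the knockout libraries differed in sign. Many of these genes had few reads. Per library there were 8 to 19 for Ngfr, 16 to 40 for Aqp3, 25 to 47 for Trp63, 10 to 15 for Trpm5 and 34 to 57 for Syp, while Icam1 had 4764 to 6266.

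**Figure D4:**
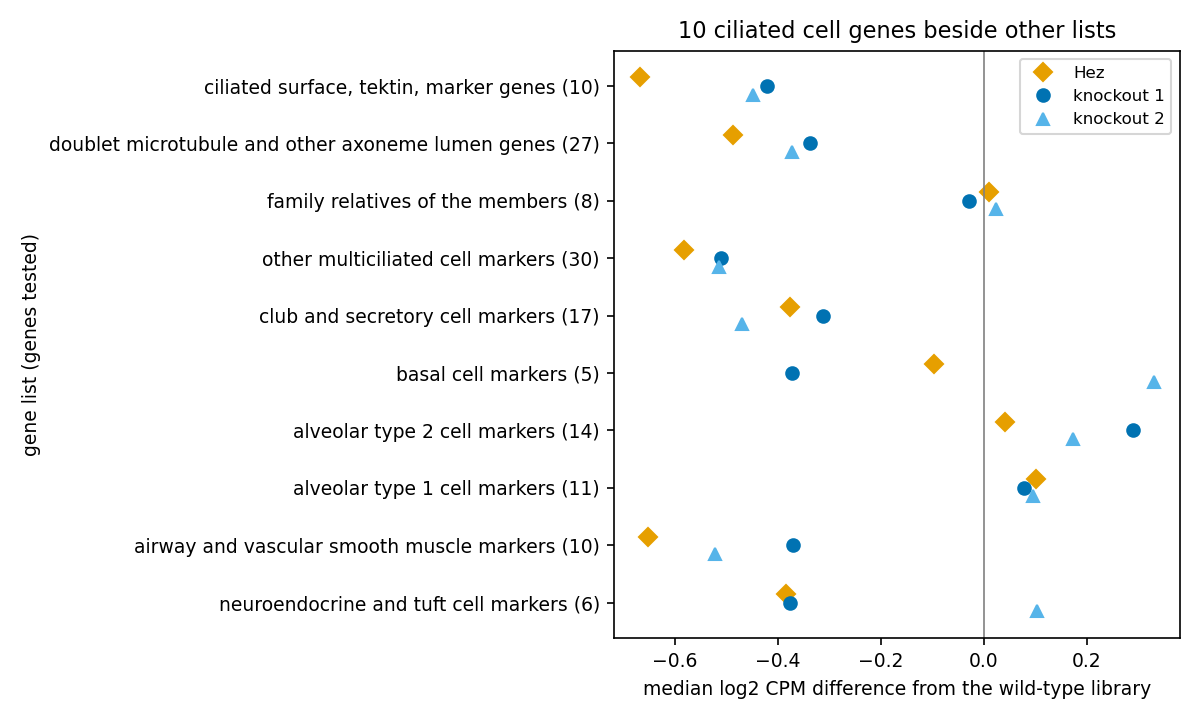
Median log2 CPM difference from the wild-type library for the 10 genes and for 9 other lists, with 1 point each for Hez, knockout 1 and knockout 2 and the number of genes tested in brackets. The medians of the multiciliated cell lists, club cell markers and smooth muscle markers lie between -0.67 and -0.31 in these libraries, and those of the family relatives between -0.03 and 0.02.

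The genes whose differences from wild type came closest to the median of the 10, over Hez and both knockout libraries, were Lrrc23, Cfap61, Fndc7, Ccdc30, Rsph1, Ccdc78, Kcnmb1 and Togaram2. The measure was the largest absolute distance over these 3 log2 differences, taken among genes with a mean of at least 5 CPM. It was 0.04 for Lrrc23, a radial spoke protein gene, 0.05 for Cfap61 and 0.06 for Rsph1, a gene of the radial spoke head. Lrrc23 had 60.5 CPM in wild type, 39.2 in Hez, 45.0 in knockout 1 and 44.6 in knockout 2. Kcnmb1, which encodes a potassium channel subunit of smooth muscle, had 17.8, 11.6, 13.03 and 12.96 CPM in the same libraries, at a distance of 0.06. With 3 differences that share 1 wild-type library, such likeness is a description of these libraries.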

How the data were processed

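For 4 libraries of mouse lung, the authors deposited raw read counts and FPKM values per gene, as named in the file headers. The deposited FPKM equals the count divided by the library total and the gene length, within a relative tolerance of 1e-06 for 66024 values above 0. Gene lengths and coordinates are those of the deposited table. Per the submitters' processing notes, coordinates are on GRCm39. Aligner, counter, annotation release and strandedness: not given in the sources used here.

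Groups follow the genotype labels. Since separate litters, cages or batches are not recorded, the p-values reflect sample-to-sample spread alone, which may be technical. In the fits against wild type and against Hez, the spread within groups comes from the knockout libraries only. The p-values and standard errors of these fits thus assume that the single wild-type and Hez mice vary like the knockouts. That assumption was not tested. Library pairs differed beyond counting noise (mean chi-square per gene 8.00 to 11.7). The value for the knockout pair was 9.96. It was above those of knockout 1 with Hez (8.00), wild type with Hez (8.08) and knockout 1 with wild type (8.42). Only the pairs of knockout 2 with Hez (10.8) and with wild type (11.7) were higher.

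Counts were filtered with filterByExpr (minimum count 10), scaled by TMM (factors 0.993 to 1.01) and tested with the edgeR 4.0.16 quasi-likelihood test in R 4.3.3, two-sided, with Benjamini-Hochberg adjustment over 15055 genes and a threshold of 0.05. Fits against wild type and against Hez used 3 groups and 1 residual degree of freedom, moderated over all genes (7.02 prior degrees of freedom). The comparison with both references together used 2 residual degrees of freedom. Standard errors were obtained from the log2 fold and the square root of F. Single-library differences are of log2 CPM with a prior count of 2. The procedure was tested on simulated data. Alternatives used DESeq2 1.42.0, limma 3.58.1 and each library left out.

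The 10 genes and the 9 lists were chosen with earlier results of these data known. Named are all 10 genes and Dnah9, all family relatives, up to 4 genes per list by smallest p, and the 8 genes most alike. Proteins and exon positions were not analysed here.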

Additional observations from a re-analysis of the deposited data

How the results depend on the processing

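The negative direction against wild type held for each of the 10 genes under each alternative that tested it. Each alternative used the same wild-type library, the highest of the 4 for all 10 genes, so this says nothing about other wild-type mice. Under the alternatives 0 of the 10 passed in any comparison. DESeq2 gave no adjusted p for Cdhr4, Tekt1, Tekt2 and Tekt4 against wild type or against both references together. The count of all genes called against wild type, 8 with edgeR, was 4 with no filter and 4 with the stricter filter (mean of 10 CPM, which left 8 of the 10 genes), 16 with DESeq2, and 1, 1 and 1 with limma on log2 FPKM plus 0.5, 0.1 and 1. The median log2 fold of the 10 genes against wild type, -0.48, was -0.44 and -0.39 with limma on log2 FPKM plus 0.5 and 1, and -0.48 to -0.43 with 1 library left out. Against Hez, 1 gene was called, 7 with DESeq2 and 0 with limma on log2 FPKM plus 0.5 or 0.1 (558 and 560 genes at an unadjusted p below 0.05). The median of the 10 was 0.16 to 0.18 with 1 library left out, and the fold of Cfap126, -0.00056, was 0.0013 with no filter, 0.10 without knockout 1 and -0.12 without knockout 2. Without knockout 2 the folds of Cdhr3 and Tekt2 against Hez also changed sign, to -0.02 and 0.02. No fit of these 2 comparisons has residual degrees of freedom without a knockout library, so those values carry no test.

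Against both references together, 2 genes were called, 34 with DESeq2, 1 with the stricter filter, 1 with limma-voom, 1, 1 and 0 with limma on log2 FPKM plus 0.5, 0.1 and 1 (648 at an unadjusted p below 0.05 for the last). The count was 101 without knockout 1, 20 without knockout 2, 7 without Hez and 1 without wild type, where the lone library of a group is assumed to vary like the others. The median of the 10 was -0.11 with limma-voom and -0.11, -0.11 and -0.11 with limma on log2 FPKM plus 0.5, 0.1 and 1, and -0.48 to 0.18 with 1 library left out. Folds near 0 changed sign: Tppp3 to -0.0049 with library totals only and to -0.00497 with the stricter filter, Cdhr4 to 0.0081 and Tekt1 to 0.015 with limma-voom, and Tekt1 to 0.0017 and 0.0034 with limma on log2 FPKM plus 0.5 and 0.1. With 1 library left out, the lowest fold came without Hez and the highest without wild type: -0.60 to 0.0296 for Cdhr3, -0.49 to 0.50 for Cdhr4, -0.46 to 0.28 for Tmem212, -0.20 to 0.23 for Tppp3, -0.33 to 0.35 for Tekt1, -0.50 to 0.31 for Tekt4 and -0.53 to 0.13 for Ccdc153. The cause of these changes was not tested beyond which library was left out. For Hez against wild type 70 of 70 alternative values stayed within counting error. No paired analysis was possible because the labels carry no replicate numbers. Scaling with DESeq2 size factors or library totals shifted the median of all genes by -0.0012 to -0.012 against wild type. Tekt2 and Cdhr4 had the fewest reads, 321 and 354 over the 4 libraries.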
